A study of Mus musculus with 2 samples.

Results

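The genes of cholesterol and fatty acid synthesis were compared between mouse embryonic stem (ES) cells that lived on Baf53a and ES cells that lived on Baf53b. The set follows a biochemical pathway and uses no measured value to pick its members, though it was chosen with earlier results of these data known, and holds 31 genes of the 20823 that the array probes name: 18 enzymes of the sterol branch, 8 enzymes of the fatty acid branch and 5 genes that regulate or carry sterols. All 31 had at least 1 probe well above background on both arrays, the scanner software's flag for a signal clearly brighter than its surroundings, as had 16608 genes in all. They were read by 42 probes, of which 41 carried that flag in both conditions.

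Cells make cholesterol from acetyl-CoA through mevalonate, farnesyl diphosphate, squalene and lanosterol, and they build fatty acids from the same acetyl-CoA. When membrane sterol runs low, SCAP carries the transcription factors SREBP1 and SREBP2 (the products of Srebf1 and Srebf2) from the endoplasmic reticulum to the Golgi, where they are cut and released to switch on these enzymes, while INSIG proteins hold SCAP back when sterol is plentiful. Growing cells such as ES cells need both products for membranes, and the 15% serum of the culture medium supplies part of them from outside.

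Baf53a and Baf53b are alternative actin-related subunits of the Baf chromatin-remodelling complex, the first found in stem and progenitor cells and the second in neurons. Both groups came from 1 clone of E14-derived ES cells, Baf53a-cKO, whose Baf53a alleles carry CRISPR/Cas9 deletions of 23 bp and 7 bp and which live on a Cas9-resistant Baf53a cDNA that tetracycline (Tet) switches off. The clone received a vector for Myc-tagged Baf53a or for Myc-tagged Baf53b, and from 48 h later was kept in 1 μg/mL Tet for 6 days, in medium with LIF. Each condition was hybridised to 1 array, so that no difference given here has a replicate check, no test could be run and no p-value is given. The arrays are of the 1-colour kind, and the 75th percentile of the processed signal was 1161 on the array of the Baf53a-expressing cells and 1128 on the other.

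Values are log2 signals with the 75th percentile of each array set to 0, and differences are Baf53b- minus Baf53a-expressing cells. Actl6b encodes Baf53b: its probe read -3.24 in Baf53b-expressing cells and did not clear background in the Baf53a-expressing ones, a difference of at least 14.5-fold, taken against the lowest signal that cleared background there or the dim probe itself, whichever was brighter. The probe of Actl6a, the gene for Baf53a, stood at 1.71 and 1.67. Whether these probes see the transfected cDNA was not examined here. The label of the cells was checked with 10 markers of undifferentiated ES cells, all of which were measured, with Pou5f1 at 4.55 and 4.41, Zfp42 at 6.38 and 6.27 and Nanog at -0.78 and -0.84. Of the 10, 8 were below 0, where 50.9% of all genes measured were. Their median difference was -0.079, with a range from -0.15 (Esrrb) to 0.07 (Nr0b1). Of these markers 0 were at least 1.2-fold apart, where 3.41% of all genes were at least 1.2-fold lower and 8.47% higher. In the brightest of 5 groups of genes of equal size, which holds 9 of the 10, 75.9% of all genes were below 0. The part of these markers in the values of the set was not tested.

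No gene of the set reached a 1.2-fold difference in either direction, where 3.41% of all genes measured were at least 1.2-fold lower and 8.47% at least 1.2-fold higher in Baf53b-expressing cells. These shares come largely from dim genes: in 5 groups of equal size by brightness they were 9.21% lower and 24.8% higher in the dimmest group, which holds 1 gene of the set, 2.05% and 3.85% in the middle group, which holds 10, and 1.05% and 1.08% in the brightest, which holds 11. The split of all genes moved with the scaling, to 5.41% lower and 5.55% higher with quantile normalization, 5.11% and 5.82% with cyclic loess and 4.26% and 7.28% with centring on the median, and no gene of the set passed the mark under any of them. None reached 2-fold, as 0.193% of all genes did. The widest difference of a gene was 1.17-fold. On the log2 scale, 28 of the 31 genes differed by less than 0.2, against 80.5% of all genes, and 17 by less than 0.1, against 52.2%. Between the arrays, 18 genes of the set were below 0 and 13 above it, with a median of -0.048, and 50.9% of all genes were below 0, with a median of -0.0032. With centring on the median, 23 of the 31 were below 0, beside 56.9% of all genes. With cyclic loess 17 were, beside 51.4%. The plot of the signals shows each gene's pair of values lying close together. Averaged over the probes of a gene, brightness in Baf53a-expressing cells ranged from -4.35 for Fads2 to 3.77 for Fdps. Single measured probes ranged from -6.75 (Acaca) to 4.42 (Acly). These ranges cannot be read as an order of mRNA levels, since probes differ in how well they hybridise.

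**Figure D1:**
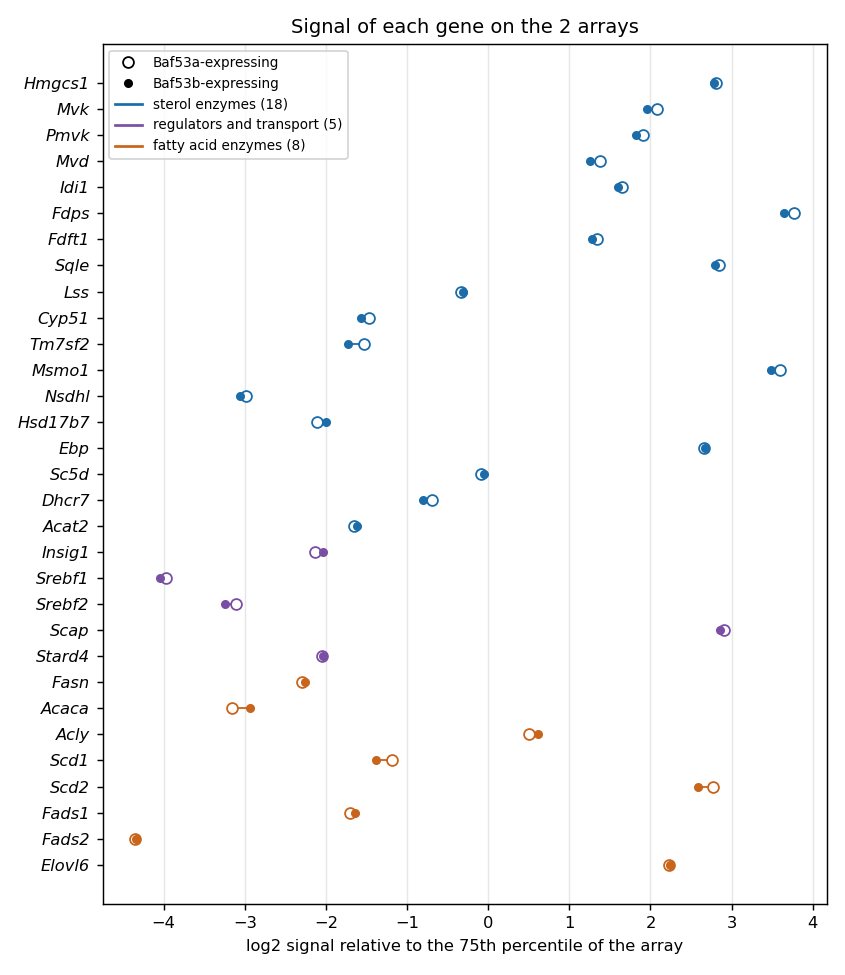
Log2 signal of each of the 31 genes relative to the 75th percentile of its array (x axis), with Baf53a-expressing cells as open and Baf53b-expressing cells as filled circles, 1 array each, coloured by branch. The circles of a gene overlap or nearly touch in every row; the widest gaps are those of Acaca (0.22), Tm7sf2 (-0.20) and Scd1 (-0.20).

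In the sterol branch, 13 of 18 enzymes were below 0 and 5 above it, with a median difference of -0.074 and a range from -0.20 to 0.11. Of all genes measured, 50.9% were below 0. Against the medians of their own brightness groups, 10 of the 18 enzymes were lower. The first steps turn acetyl-CoA into mevalonate. Acat2, the cytosolic thiolase that makes acetoacetyl-CoA, stood at -1.66 with Baf53a and at -1.62 with Baf53b. Hmgcs1, the HMG-CoA synthase of the cytosol and a classic SREBP target, stood at 2.81 and 2.78. Both differences, 0.039 and -0.022, were smaller than the SD between spots of like brightness, 0.0770 and 0.0597.

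Promoters of the set were read from RefSeq (build GRCm38.p6), each from 250 bases before to 50 bases after the start of the gene, because the enzymes are known for SREBP sites that work beside CCAAT boxes. The table holds 24 of the 31 genes, and Fdps, Fdft1, Sqle, Stard4, Scd1, Scd2 and Fads1 are not in it. The letters CCAAT, on either strand of any start listed for a gene, were found in 14 of 15 sterol enzymes, in 3 of 4 regulators and in 2 of 5 fatty acid enzymes, against 42.5% of the 13193 genes measured on the arrays that the table holds. The letters GGGCGG, the core of an Sp1 site, were found in 14, 4 and 2 of the same genes, against 60.3%. The letters TCACNCCAC, a form of the sterol regulatory element, were found in 1 of the 24, Hmgcs1, against 1.47%. The letters of the 3 motifs do not contain each other. These are matches of letters, not sites shown to be bound, and with no difference past 1.2-fold in the set they were not set against the array values.

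The promoter of Hmgcs1 (chr13:119690101-119690400, plus strand) is shown as the promoter of the set with all 3 motifs. Capitals mark the match to the form of the sterol regulatory element, TCACCCCAC, which starts at base 114 counted from the 5′ end. They also mark the 4 matches to CCAAT, each read here as ATTGG from the opposite strand. The last of these lies after the start of the gene.

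Hmgcs1: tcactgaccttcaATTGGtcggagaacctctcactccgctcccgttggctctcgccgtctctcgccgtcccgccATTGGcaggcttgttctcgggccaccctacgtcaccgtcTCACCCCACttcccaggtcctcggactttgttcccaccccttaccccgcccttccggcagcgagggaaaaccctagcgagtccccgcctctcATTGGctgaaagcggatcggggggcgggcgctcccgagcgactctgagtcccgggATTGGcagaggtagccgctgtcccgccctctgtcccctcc

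The next enzymes turn mevalonate into farnesyl diphosphate. All but Mvd lie in the brightest of the 5 groups, where 75.9% of all genes were below 0, and all were below 0. Mvk, mevalonate kinase, stood at 2.09 and 1.96, Pmvk, the next kinase, at 1.91 and 1.83, and Mvd, the decarboxylase that forms isopentenyl diphosphate, at 1.38 and 1.25. Both probes of Mvk (-0.16 and -0.09) and both probes of Pmvk (-0.11 and -0.06) had the same sign. Idi1, the isomerase that follows, stood at 1.65 and 1.59. Fdps, which makes farnesyl diphosphate, the branch point towards sterols and prenylated proteins, went from 3.77 to 3.64, a difference of -0.13 from its single probe.

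Squalene and lanosterol are made by Fdft1 (squalene synthase), Sqle (squalene epoxidase) and Lss (lanosterol synthase). Their differences were -0.07, -0.05 and 0.01, with Sqle, a rate-limiting step, at 2.84 and 2.79. Fdft1 has a further probe that was not well above background on either array, with signals of 9.27 and 4.84, and its value rests on the other probe, at 1.35 and 1.27.

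The enzymes that turn lanosterol into cholesterol did not share a direction. Tm7sf2, a sterol reductase, had the lowest difference of the whole set, from -1.53 to -1.73, and its 2 probes gave -0.21 and -0.19. Hsd17b7, a keto reductase in the removal of the methyl groups, had the highest difference of the branch, from -2.11 to -1.99, with 0.12 and 0.11 from its 2 probes. The other enzymes of that removal were Msmo1, at 3.59 and 3.48, and Nsdhl, whose 2 probes gave -0.18 and 0.02. Cyp51, the lanosterol demethylase, differed by -0.10, as did Dhcr7, the reductase of the last step, while Ebp, a sterol isomerase, differed by 0.0042 and Sc5d, a desaturase, by 0.04.

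**Figure D2:**
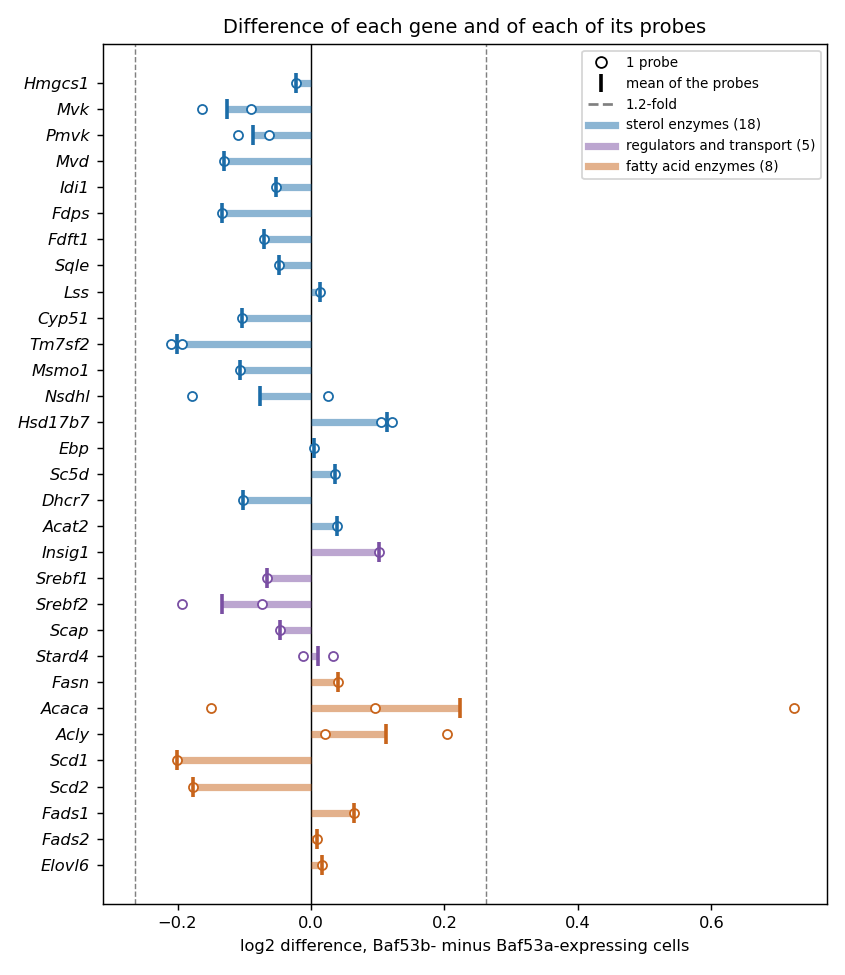
Log2 difference, Baf53b- minus Baf53a-expressing cells (x axis), of each gene (bar ending in a tick, the mean of its probes) and of each probe (open circles), with dashed lines at 1.2-fold. No tick crosses a dashed line, and the only measured probe that does is the dimmest of Acaca, at 0.72.

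The fatty acid branch had a median difference of 0.029, with 2 of 8 enzymes below 0 and 6 above it, and a range from -0.20 to 0.22. Of all genes measured, 50.9% were below 0. Against the medians of their own brightness groups, 3 of the 8 enzymes were lower. With centring on the median, 4 of the 8 were below 0. Acly, ATP citrate lyase, which supplies cytosolic acetyl-CoA to both branches, stood at 0.51 and 0.62, the means of 2 probes far apart in brightness. The 2 probes of Acly gave 0.02 and 0.20, with signals in Baf53a-expressing cells of 24840 and 110. Fasn, fatty acid synthase, stood at -2.30 and -2.25. Acaca, the acetyl-CoA carboxylase that commits acetyl-CoA to fatty acids, had the widest difference of the set in the main processing, and its 3 probes disagreed in sign. They gave -0.15, 0.10 and 0.72, with signals in Baf53a-expressing cells of 3681, 55.5 and 10.8. The probe that was highest was thus the dimmest, close to the lowest signal well above background on that array, 8.45. Other processing changed the rank of Acaca. Tm7sf2 was wider with quantile normalization (-0.220 against 0.165), cyclic loess (-0.219 against 0.175) and centring on the median (-0.222 against 0.203). With normexp Acaca stood at 0.049.

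The stearoyl-CoA desaturases, which place the first double bond in saturated fatty acids, were the lowest of the fatty acid enzymes. Scd1 went from -1.18 to -1.38 and Scd2 from 2.77 to 2.59, differences of -0.20 and -0.18. They are close paralogs, each with a single probe here, and whether the probes share signal was not tested. The remaining enzymes stayed nearer to 0. Fads1 and Fads2, the desaturases of polyunsaturated fatty acids, differed by 0.06 and 0.0093, and Elovl6, the elongase of saturated chains, by 0.017.

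Among the regulators, Srebf2, which encodes the main SREBP of sterol synthesis, stood at -3.11 with Baf53a and at -3.24 with Baf53b, with -0.19 and -0.07 from its 2 probes. Srebf1, whose products drive mainly fatty acid synthesis, stood at -3.98 and -4.04. Scap, their escort, stood at 2.91 and 2.86. Insig1, which retains SCAP and is itself an SREBP target, went the other way, from -2.14 to -2.03. Stard4, a cytosolic sterol carrier, had 2 probes at -0.01 and 0.03. The median of the 5 genes was -0.046, and 3 of them were below 0, where 50.9% of all genes were. The array reads mRNA, and neither the cutting of SREBP proteins nor sterol levels were measured.

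These differences can be set against the noise that the arrays allow to be measured. From probes printed many times on each array, the SD of a difference between single spots was 0.132 over all brightness, and ran from 0.263 in the dimmest to 0.0597 in the brightest of 5 groups of genes of equal size. It holds spot noise only, not that of culture, labelling or hybridisation. In 16 of the 31 genes the difference was larger than this SD for the brightness group of the gene, 12 lower and 4 higher. Of all genes, 49.9% passed the same mark, counted in both directions together. In the brightest group the median of all genes, -0.062, was itself past the SD of 0.0597. The group is that of the mean over a gene's probes. Among the 4 higher were Acaca (0.22) and Acly (0.11), whose dimmest probes gave 0.72 and 0.20 and whose brightest gave -0.15 and 0.022. The scanner software gives its own error for each spot, and for a difference of a measured probe of the set it ranged from 0.204 to 0.386 with a median of 0.204. Of the 41 probes, 2 differed by more than that error, 1 of Tm7sf2 (-0.21) and 1 of Acaca (0.72), against 17.6% of all named probes. That share covers all brightness, and no share within brightness groups was taken. The set has 1 gene in the dimmest group, where the differences of all genes had an SD of 0.299. It has 11 in the brightest, where that SD was 0.0999.

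Differences also varied with brightness over all genes. The median difference of all genes ran from 0.0845 in the dimmest of the 5 groups to -0.062 in the brightest, where 75.9% of the genes were below 0. That brightest group held 11 genes of the set, 8 of them sterol enzymes, and 9 of the 11 were below 0. Against the median of its own group, 16 of the 31 genes were lower and 15 higher. The 18 sterol enzymes then had a median of -0.035, with 10 of them lower. Of the 6 sterol enzymes in groups whose medians were above 0, Nsdhl, in a group with a median of 0.043, and Cyp51, Tm7sf2 and Dhcr7, in a group with a median of 0.013, were below 0, and Hsd17b7 and Acat2, in the latter group, were above it. The 8 fatty acid enzymes had a median of 0.04 against their own groups, with 3 lower.

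**Figure D3:**
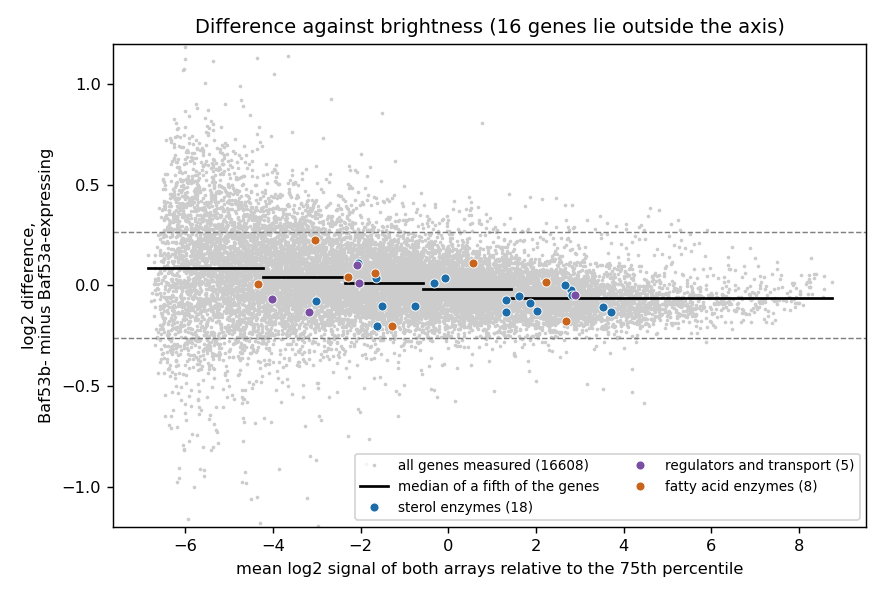
Log2 difference (y axis) against the mean log2 signal of both arrays (x axis) for all 16608 genes measured (grey) and the 31 genes of the set (coloured by branch), with dashed lines at 1.2-fold and black bars at the median of each of 5 groups of equal size; 16 genes lie outside the y axis, which ends at 1.2. The black bars step down from 0.0845 to -0.062, and the coloured points lie on both sides of them.

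The branches differed by -0.10 in their medians, sterol minus fatty acid, with overlapping values: the lowest genes of both, Tm7sf2 and Scd1, lay at -0.20. That gap became -0.0039 when only probes at or above the median signal on both arrays were kept, which left 6 fatty acid enzymes with a median of -0.067. The same 6 enzymes read by all their measured probes had a median of 0.04; the filter dropped the dim probes of Acaca, which turned from 0.22 to -0.15, and of Acly, which went from 0.11 to 0.022. With cyclic loess, which levels the trend with brightness, the sterol median became -0.037, the fatty acid median was 0.029 and the gap was -0.066. The gap was -0.073 with quantile normalization and widest, at -0.116, with normexp.

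**Figure D4:**
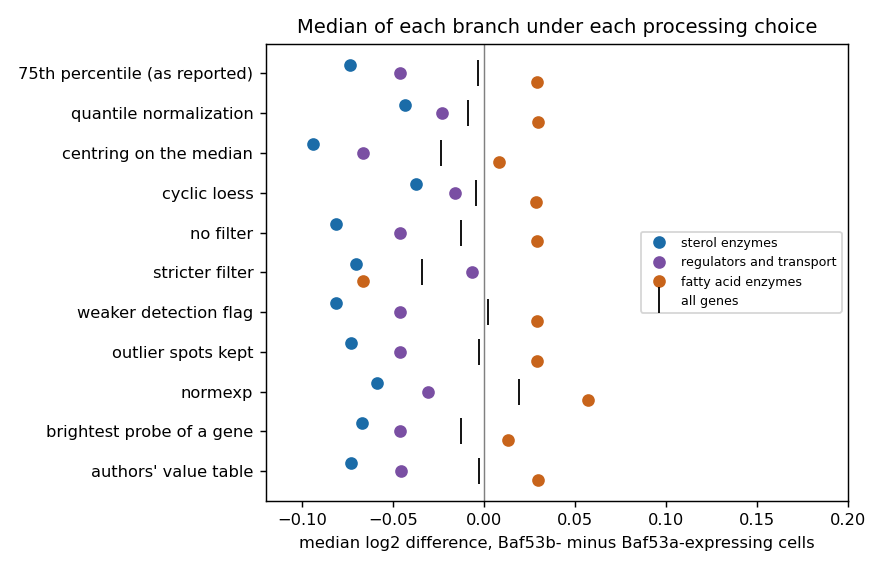
Median log2 difference (x axis) of the sterol enzymes, the regulators and the fatty acid enzymes (circles) and of all genes measured (black bars), as reported in the top row and under 10 other ways of processing (y axis). The sterol median stays between -0.094 and -0.037, and the fatty acid median lies above 0 except under the stricter filter, at -0.067.

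Other genes of the pathway were read beside the set. Of the genes that hold or cut SREBP outside the set, Insig2 and the proteases Mbtps1 and Mbtps2 differed by 0.06, 0.0080 and 0.05. Of 12 genes for sterol transport, esterification and efflux, 0 were at least 1.2-fold apart, with a median of -0.0058. Their lowest was Nr1h2 (-0.19), a nuclear receptor for oxysterols, and their highest Mylip (0.20), a ubiquitin ligase that such receptors switch on. Of 19 other genes for the synthesis and activation of fatty acids, 3 were at least 1.2-fold higher and 0 lower, beside the 8.47% and 3.41% of all genes, with a median of 0.05. The 3 were Acsl5 (0.38), an acyl-CoA synthetase, Gpam (0.33), which starts glycerolipid synthesis, and Fads3 (0.29), a member of the desaturase family. Acsl5 went from -4.08 to -3.69, Gpam from -4.73 to -4.40 and Fads3 from -2.47 to -2.18. In the brightness groups of these genes, 10.99% of all genes were at least 1.2-fold higher for Acsl5, 24.8% for Gpam and 3.85% for Fads3, and each of the 3 values comes from 1 probe.

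Markers of other cell types were read beside the set, and their part in its values was not tested. All 10 markers of primitive endoderm were above 0, where 50.9% of all genes were below it, and 6 of them were at least 1.2-fold higher, where 8.47% of all genes were. Their median was 0.27, with a summed signal of 63.0 and 71.0 in units of the 75th percentile and Sparc, at 0.013, as the brightest probe and the lowest difference. The 6 were the endocytic adaptor Dab2 (0.40), the receptor Pdgfra (0.32), the basement membrane genes Col4a2 (0.31), Lama1 (0.30) and Lamb1 (0.28), and the transcription factor Sox17 (0.27). Lama1 and Lamb1 lie in the brightest of the 5 groups, where 1.08% of all genes were at least 1.2-fold higher, and Dab2 and Pdgfra in the second dimmest, where 10.99% were. Of 10 markers of visceral endoderm, an epithelium rich in lipid transport, 7 were measured, with a median of 0.084, a summed signal of 27.0 and 25.3 and Apoe as the brightest, while Ttr, Apoa1 and Apoa4 were not well above background on either array. In that list Apob, which lies in the dimmest of the 5 groups, was at least 1.2-fold higher, at 0.32, as were 24.8% of all genes of that group. Of 7 fibroblast markers 5 were measured, 4 of them above 0, with a median of 0.22. Their summed signal was 1.25 and 1.22, with Thy1, at -0.15, as the brightest. Dcn, at 0.37, was at least 1.2-fold higher, as were 10.99% of all genes of its brightness group. Postn was not well above background on either array and Col3a1 only in Baf53b-expressing cells.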

How the data were processed

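Total RNA of 2 cultures, 1 per condition, was labelled with Cy3 and hybridised to Agilent whole mouse genome arrays. Scans were read by the authors with Agilent Feature Extraction 11.0.1.1, and the deposited spot intensity is background-subtracted and spatially detrended, with error, flags and median signals beside it. The array design names mm9. A further deposited table gives for each probe a ratio, its intensity over 1 number per array (1160 and 1126): all 30479 probes compared per array fitted within 0.1%.

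Control spots and outlier spots (173 and 143 gene spots) were left out, the log2 intensity of a probe was the mean of its spots, and each array's 75th percentile was set to 0. A probe counted as measured when at least 50% of its spots were well above background on both arrays. Probes were named through RefSeq accessions in SystematicName (27410 of 39411), with a gene table of GRCm38.p6 used for names, and averaged per gene. Depth has no meaning for arrays; their number, 1 per condition, limits the precision. No test was possible; a 1.2-fold difference was used for counts and set beside all genes. The members and gene lists were chosen with earlier results of these data known. Named were all 31 genes and, of each other list, the genes at least 1.2-fold apart, otherwise the highest and lowest. The genes that hold or cut SREBP outside the set were all named, and single genes of the marker lists serve as checks. Of the authors' table no fold changes or p-values were used, as it holds none. Alternatives were quantile normalization, median centring, cyclic loess, no and a stricter filter, a weaker detection flag, outlier spots kept, normexp, the brightest probe of a gene and the authors' table. Python 3.11.15, numpy 2.4.6, pandas 2.3.3, R 4.3.3 and limma 3.58.1 were used, and the steps were tested on simulated data.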

Additional observations from a re-analysis of the deposited data

How the results depend on the processing

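No paired analysis was possible because each condition had a single array, so that leaving out a replicate or fitting the slide as a block could not be done either. Normexp (offset 50) started from median spot signals. Under the 10 alternatives, 0 genes of the set were at least 1.2-fold higher, and 0 lower except for 1, Fdft1, without the filter and with the weaker detection flag, both of which let in its probe near background. The median of the sterol enzymes stayed below 0, from -0.094 to -0.037, the latter with cyclic loess. The median of the regulators lay between -0.067 and -0.0066, the latter with the stricter filter, which left only Scap and Stard4. The median of all 31 genes, -0.048, was -0.023 with quantile normalization and -0.016 with cyclic loess; the cause was not tested. With the stricter filter, which kept 25 genes of the set, the median of the fatty acid enzymes turned from 0.029 to -0.067 and the gap between the branches from -0.10 to -0.0039; it dropped Fasn, Fads2 and the dim probes of Acaca and Acly, and the 6 enzymes left had a median of 0.04 when read by all their measured probes. Single genes changed sign most often with cyclic loess and with centring on the median, 5 of 31 each, and Acaca did so with the brightest probe of a gene, at -0.15. Without the filter 12.5% of all genes were at least 1.2-fold higher and 6.22% lower, and with normexp 2.72% and 0.723%. Background limits the dim end, at a lowest detected signal of 8.45 with Baf53a and 9.75 with Baf53b.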

Other observations

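The other users of these pathways were also read. Of 7 genes of the isoprenoid branches, which draw on farnesyl and isopentenyl diphosphate for prenylated proteins, dolichol and ubiquinone, 0 were at least 1.2-fold apart and 6 were below 0, where 50.9% of all genes were, with a median of -0.017. Against the medians of their brightness groups 4 of the 7 were lower. Their lowest was Pggt1b (-0.10), a subunit of a prenyltransferase, and their highest Pdss2 (0.06), a subunit of the enzyme that makes the ubiquinone side chain. Of 12 genes of fatty acid oxidation, 0 were at least 1.2-fold apart and 8 were below 0, with a median of -0.053, and 6 were below the medians of their brightness groups. Acaa2, the mitochondrial thiolase, was the lowest at -0.26, from 3.34 in Baf53a-expressing to 3.08 in Baf53b-expressing cells, and Acads, a dehydrogenase of short chains, the highest at 0.16. Acaa2 lies just inside the 1.2-fold mark and in the brightest group, where 1.05% of all genes were at least 1.2-fold lower.

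Probes of the same gene differed in sign in 3 of the 9 genes of the set read by more than 1 measured probe (Nsdhl, Stard4 and Acaca). Over all 4212 genes measured with more than 1 probe the share was 40.2%. No explanation was tested.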
